A study of Mus musculus with 2 samples.

Results

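The regions described here are tall peaks of open chromatin in which no footprint was called in either library. They were found in DNase-seq of whole adrenal glands, tissue that holds the steroid-making cortex and the catecholamine-making medulla, from female B6CASTF1/J mice aged 36 days, an F1 hybrid of C57BL/6J and CAST/EiJ. The 2 libraries form 1 group, with biological replicate numbers 1 and 2. Their animals carry different numbers in the labels but share a donor record, so the spread between the libraries may be partly technical. A region was chosen by its measured values: a height at or above the median of that library's longer peak list, which was 0.897 in replicate 1 and 0.997 in replicate 2, and no overlap with any footprint of the same library. Height here means the signal that the authors deposited for a peak. Of 77983 tall autosomal peaks in replicate 1, 6087 were called without a footprint (7.81%), and of 81932 in replicate 2, 7825 were (9.55%). The 2850 such peaks of replicate 1 that overlapped such a peak of replicate 2 are the regions of this report. They made up 3.65% of the tall peaks, among 153552 autosomal and 157595 total peaks of replicate 1.

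DNase I cuts DNA where chromatin is open. A transcription factor or another protein that sits on the DNA can shield the few bases under it, which leaves a short dip in the cutting called a footprint. A tall peak without such a dip is a stretch that is cut often but without a dip that the caller detected. Many mammalian promoters lie in CpG islands, stretches in which the dinucleotide CpG is kept at a high frequency and which are often open in many cell types. CpG content is given here as observed over expected, the number of CpG divided by the number that the C and G content of the same stretch would give by chance.

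The sequences below show the tallest of these regions that overlap no untranslated region, first the 3 tallest near a transcription start site (TSS), then the tallest in an exon and the tallest between genes. Each is the whole peak of replicate 1 on the + strand of the mm10 reference, a C57BL/6J sequence, so that CAST/EiJ alleles are not shown, and the capitals mark every CpG. The Derl1 peak (chr15:57892001-57892220) had 18 CpG in 220 bp, the Dyrk1a peak (chr16:94569081-94569180) 16 in 100 bp and the Zbtb7a peak (chr10:81136901-81137120) 27 in 220 bp. The Jun peak (chr4:95050601-95050840) had 24 CpG in 240 bp, and the Mos peak (chr4:3874921-3875120) 19 in 200 bp.
Derl1: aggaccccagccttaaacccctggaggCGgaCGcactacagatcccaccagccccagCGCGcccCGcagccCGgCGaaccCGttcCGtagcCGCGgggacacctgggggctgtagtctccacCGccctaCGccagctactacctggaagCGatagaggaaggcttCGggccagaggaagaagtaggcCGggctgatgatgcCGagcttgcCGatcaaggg
Dyrk1a: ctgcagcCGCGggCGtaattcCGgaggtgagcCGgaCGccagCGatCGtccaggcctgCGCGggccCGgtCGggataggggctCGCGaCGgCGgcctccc
Zbtb7a: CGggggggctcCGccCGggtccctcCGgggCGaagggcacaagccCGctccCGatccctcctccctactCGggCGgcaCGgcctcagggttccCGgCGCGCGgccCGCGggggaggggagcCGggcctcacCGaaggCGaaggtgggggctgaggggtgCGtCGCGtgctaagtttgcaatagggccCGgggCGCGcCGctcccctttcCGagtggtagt
Jun: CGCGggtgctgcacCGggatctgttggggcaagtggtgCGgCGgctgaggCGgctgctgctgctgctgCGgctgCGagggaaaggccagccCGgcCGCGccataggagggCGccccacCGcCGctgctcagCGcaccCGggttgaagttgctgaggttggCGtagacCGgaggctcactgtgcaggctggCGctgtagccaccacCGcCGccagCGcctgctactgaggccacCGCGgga
Mos: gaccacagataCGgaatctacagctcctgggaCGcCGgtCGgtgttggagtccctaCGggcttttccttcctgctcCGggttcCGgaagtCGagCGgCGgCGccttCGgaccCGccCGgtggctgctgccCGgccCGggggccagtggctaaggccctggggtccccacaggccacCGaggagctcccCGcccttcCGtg

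These 5 stretches lay in different parts of genes. The Derl1 peak, centred 337 bp downstream of the TSS, held 78 bp of coding exon, and the rest was intron. The Zbtb7a peak lay in an intron, 433 bp downstream of the TSS. The Dyrk1a peak lay 879 bp upstream of the nearest TSS and outside any gene. The Jun peak lay in coding sequence over its whole 240 bp, 1501 bp downstream of the TSS. The Mos peak lay between genes, 2.92 kb upstream of the Mos TSS. Of the 13 sequence elements searched on both strands, the Jun and Dyrk1a peaks held none, the Derl1 peak held 1 GC box (GGGCGG), and the Zbtb7a peak held 2. The Mos peak held 2 GC boxes and 1 ETS element (CCGGAAG).

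The 12 tallest regions by mean height over both libraries all lay within 1 kb of a TSS, and each stood beside a taller peak that had footprints. At Derl1, which encodes a membrane protein of the endoplasmic reticulum that helps to remove misfolded proteins, the footprint-free peak had a height of 4.69 in replicate 1 and 7.55 in replicate 2. The tallest other peak within 1 kb, with its centre 400 bp away, had a height of 18.8 and held 8 footprints in replicate 1. At Dyrk1a, a protein kinase gene, the heights were 4.597 and 6.117 in replicates 1 and 2, beside a peak of 17.0 with 6 footprints. At Zbtb7a, which encodes a zinc finger repressor, they were 3.95 and 6.76, beside a peak of 20.1 with 6 footprints. In each of these pairs of values replicate 2 was the higher, as it was for 2677 of the 2850 regions.

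The other tall regions belonged to genes of varied function. Cdv3 had heights of 3.87 in replicate 1 and 6.89 in replicate 2. Lrif1, whose product binds nuclear receptors and heterochromatin protein, had 3.60 and 5.90. Atp5mpl, a small protein that associates with mitochondrial ATP synthase, had 3.12 and 6.05 in a peak that lay wholly in annotated untranslated region. Pdlim5, a scaffold protein with PDZ and LIM domains, had 3.97 and 5.12 at 677 bp downstream of its TSS, the most distant downstream position of the 12. Arf2, a small GTPase of vesicle traffic, had 3.45 and 5.49, and Exd2, an exonuclease gene, had 3.52 and 5.41. Sec23b, a coat protein of vesicles that leave the endoplasmic reticulum, had 3.61 and 5.31, with the peak 315 bp upstream. The peak nearest to Proscos, a noncoding gene beside the coding gene Plpbp, had 3.35 and 5.33, and that at Gtf2ird2, a gene of the TFII-I family, had 3.20 and 5.34. The neighbouring tallest peaks ranged from 8.99 at Exd2 to 20.1 at Zbtb7a. The 32-mers that occur once in the genome were 80.4% in the Derl1 peak and 83.3% in the Cdv3 peak, against 100% in the other 10.

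Most footprint-free regions were only moderately tall. Their median height was 1.31 in replicate 1 (range 0.897 to 4.69), and the median of their partners was 1.90 in replicate 2, where the highest reached 7.55. Tall peaks with a footprint in both libraries, 61850 in replicate 1, had median heights of 2.27 in replicate 1 and 3.12 in replicate 2. Height above a limit and the missing footprint were both used by the rule, which does not fix how they go together. As a description, the share of tall peaks without a footprint in their own library fell with height. With the tall peaks ranked into 10 classes of height, it was 15.4% in the lowest class and 0.0512% in the highest of replicate 1, and 16.7% and 0.0244% in those of replicate 2. The share free in both libraries was not highest in the lowest class. In replicate 1 it was 5.32% in class 1 (the lowest), 7.30% in class 3 and 0% in class 10. In replicate 2 it was 1.96% in class 1, 7.99% in class 5 and 0% in class 10. On the log2 scale replicate 2 was higher than replicate 1 by a median of 0.50 in the footprint-free regions (SD 0.31 over regions) and by 0.50 in footprinted peaks (SD 0.37). Replicate 2 was the higher for 93.9% of the footprint-free regions and for 88.3% of the peaks footprinted in both libraries. The rule required a tall peak in both libraries, so these values are a description. At the threshold, the lowest regions inside had a height of 0.897 in replicate 1, with 1.19 in replicate 2 at Ica1l, 1.24 at Phlpp1 and 1.598 at Gamt. The highest candidates just outside, nearest to Xrcc5, Gm38106 and Lad1, had 0.888.

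**Figure D1:**
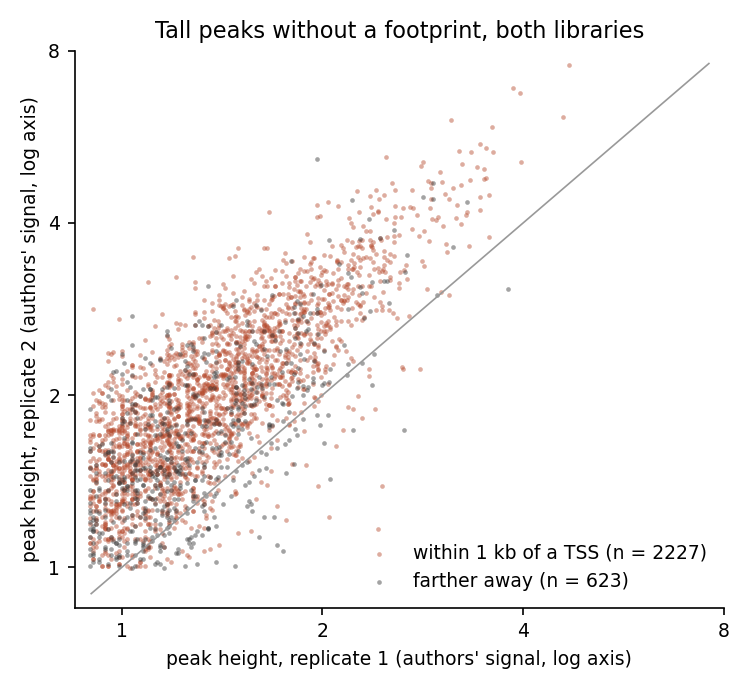
Height of the 2850 tall peaks without a footprint in replicate 1 (horizontal) and of the tallest overlapping footprint-free peak in replicate 2 (vertical), in the authors' signal on log axes, with the line of equal height. Each point is a region, 2227 within 1 kb of a TSS and 623 farther away. Most points lie above the line, and 2677 regions were higher in replicate 2.

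The call of a missing footprint was often not shared by the libraries. Of the 6087 footprint-free tall peaks of replicate 1, 46.8% met a footprint-free tall peak in replicate 2, 36.4% met only a footprinted tall peak, 7.80% only a low peak and 8.99% no peak. Of the 7825 footprint-free tall peaks of replicate 2, 36.8% met a footprint-free tall peak in replicate 1. Among footprinted tall peaks of replicate 1, 3.47% met a footprint-free tall peak in replicate 2. The 2215 peaks free of a footprint in replicate 1 alone were CpG-poorer than the regions shared by both libraries, with a median GC content of 56.1% and a median CpG observed over expected of 0.349. The shared regions had medians of 63.0% and 0.711. Of the peaks free in replicate 1 alone, 34.2% lay within 1 kb of a TSS. With place matched the gap was smaller. Within 1 kb of a TSS the medians were 64.6% and 0.714 in peaks free in replicate 1 alone, and 65.3% and 0.767 in the shared regions. Farther away they were 54.0% and 0.248, against 55.6% and 0.353.

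The footprint-free regions lay mostly at promoters. The centre of 2227 of the 2850 (78.1%) fell within 1 kb of a TSS, against 29.98% of tall peaks with a footprint in both libraries. From the peak positions of replicate 2, which are the overlapping partners of the same regions, these shares were 78.4% and 30.1%. Of the tall peaks called footprint-free in 1 library alone, without regard to the other, 56.5% in replicate 1 and 58.8% in replicate 2 lay within 1 kb of a TSS. The other footprint-free regions were in introns (351, or 12.3%), between genes (187, or 6.56%) and in exons (85, or 2.98%), where footprinted peaks had 37.9% in introns, 27.2% between genes and 4.92% in exons. Among the 2227 promoter regions, 1984 were nearest to a protein-coding gene, 95 to an antisense RNA gene and 42 to a long intergenic noncoding RNA gene. They belonged to 1979 genes. The regions were spread over all 19 autosomes, from 3.07% of tall peaks on chromosome 6 to 4.70% on chromosome 16.

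Within promoters the footprint-free regions were shifted downstream. Of the 2227, 1755 (78.8%) had their centre downstream of the nearest TSS, against 35.1% of footprinted promoter peaks. Of footprinted promoter peaks no taller than the tallest region, 46.6% did. Among promoter peaks of replicate 1, the share was 63.9% of those free in replicate 1 alone and 68.7% of those free in replicate 2 alone. From replicate 2 positions, footprint-free promoter regions were 78.7% downstream. Their median position was 384 bp downstream, with quartiles of 62.5 bp and 551 bp downstream. Only 20.9% of the footprint-free promoter regions were centred within 250 bp of the TSS, against 71.9% of footprinted ones. Between 250 and 500 bp downstream the shares were 34.6% of the footprint-free and 7.09% of the footprinted peaks, and from 500 to 1000 bp downstream they were 31.8% and 8.47%. Upstream, from 1000 to 500 bp, the shares were 7.05% and 6.87%. Of all tall peaks between 250 and 500 bp downstream, 28.5% were footprint-free in both libraries, and of those within 250 bp of a TSS 3.17% were. With footprint-free and other tall peaks limited to the same range of heights, these shares were 34.3% and 7.70%. Centres of promoter regions fell in introns in 1338 cases (60.1%), in exons in 716 (32.2%) and outside genes in 173 (7.77%), and 506 (22.7%) had TSSs on both strands within 1 kb.

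**Figure D2:**
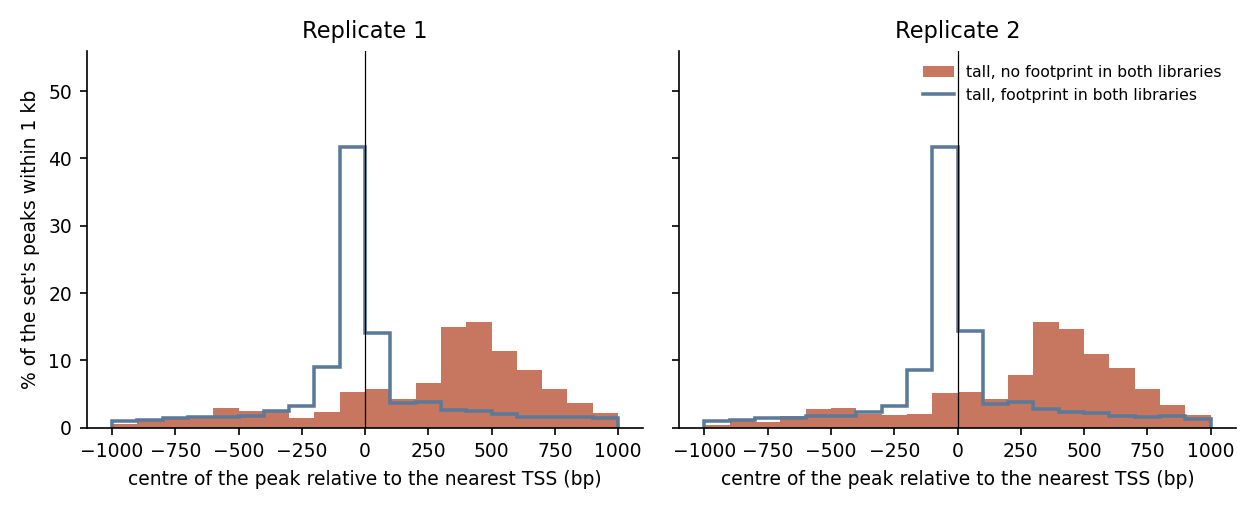
Position of peak centres relative to the nearest TSS, in bins of 100 bp, as a percentage of each set's peaks within 1 kb, for replicate 1 and replicate 2. Footprint-free regions (filled) are highest between 300 and 500 bp downstream, with 15.04% and 15.67% in those bins of replicate 1, and peaks with a footprint in both libraries (line) are highest in the 100 bp upstream of the TSS, with 41.7% in replicate 1.

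Nearly all of these promoter regions lay beside a taller peak. Of the 2227, 2175 (97.7%) had a taller peak within 1 kb, with a median height of 9.94 and a median of 6.83 times the height of the footprint-free region. Of footprinted promoter peaks, which were taller themselves, 21.7% had a taller peak within 1 kb, and of those no taller than the tallest footprint-free region 32.2% did. From 250 to 1000 bp downstream of a TSS the shares were 97.8% of footprint-free regions and 48.4% of footprinted peaks, or 49.3% of those in the same range of heights. Of replicate 1 peaks free of a footprint in replicate 1 alone, 81.8% at promoters and 89.0% in that zone had a taller neighbour. Of those free in replicate 2 alone, 81.3% and 90.3% did. At promoters a taller neighbour was thus not particular to the regions free in both libraries. In 98.1% of the 2175 cases the taller neighbour held a footprint. Of the taller neighbours of footprinted promoter peaks 99.3% did, so that this share was not particular to the neighbours of footprint-free regions. The median was 5 footprints, and in 87.4% its centre was within 250 bp of a TSS. The median distance between the 2 centres was 570 bp. The median neighbour had a CpG observed over expected of 0.900 and a GC content of 69.6%. In replicate 2, 98.2% of the footprint-free promoter regions had a taller neighbour. Away from promoters, 457 of the 623 regions (73.4%) had a taller neighbour, and 91.2% of those neighbours held a footprint. Of distal footprinted peaks 8.38% had a taller neighbour, and 97.4% of those neighbours held a footprint.

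**Figure D3:**
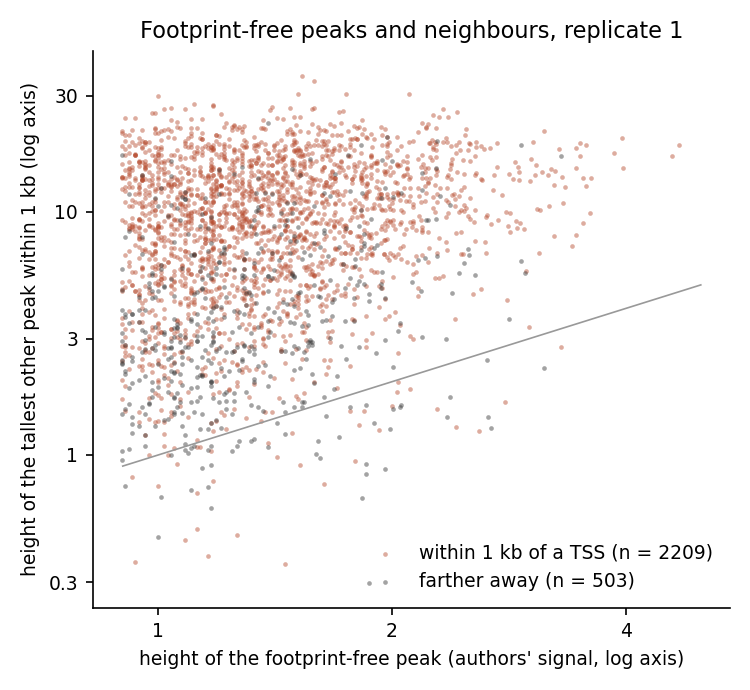
Height of each footprint-free region in replicate 1 (horizontal) and of the tallest other peak with its centre within 1 kb (vertical), in the authors' signal on log axes, with the line of equal height. The 2209 promoter regions with a neighbour lie mostly above the line, where 2175 had a taller neighbour, and the 503 distal ones lie lower on the vertical axis.

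The nearest footprint was seldom close to the edge of the peak. A footprint lay within 50 bp of the peak for 1.65% of the regions, within 100 bp for 7.23%, within 250 bp for 46.4% and within 500 bp for 82.7%. The stretch of positions under a false discovery rate of 0.05 that held each region ran without a break for a median of 1320 bp, against 356 bp for footprinted peaks and 265 bp for all autosomal peaks. Part of that gap went with place, since within 1 kb of a TSS the medians were 1392 bp for footprint-free regions and 829 bp for footprinted peaks. Among replicate 1 peaks there, the median was 1142 bp for those free in replicate 1 alone and 548.5 bp for those free in replicate 2 alone. In replicate 2 the medians were 1387 bp for footprint-free regions and 367 bp for footprinted peaks. The regions were also wider as called, with a median of 260 bp against 197 bp for footprinted peaks in replicate 1, and 35.6% of them reached 300 bp against 6.02%. The lowest false discovery rate in the region had a median of 4.9e-09, against 3.1e-15 in footprinted peaks and 9.3e-06 in all peaks. Few regions were hard to map: 2.18% had under 90% of 32-mers that occur once in the genome, against 3.11% of footprinted peaks, and 0.596% were more than 50% repeat-masked, against 2.10%.

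Footprint-free regions were rich in GC and CpG. Their median GC content was 63.0% in replicate 1 and 63.8% from replicate 2 positions, against 54.5% and 55.0% in footprinted peaks, and all autosomal peaks of replicate 1 had 52.1%. Median CpG observed over expected was 0.711 in replicate 1 and 0.720 in replicate 2, against 0.321 and 0.325 in footprinted peaks. The lists of both libraries hold the same overlapping regions, so their closeness follows from the rule and does not measure the spread between replicates. With the call made in 1 library alone, the medians were 58.4% GC and 0.545 in replicate 1 and 59.5% GC and 0.566 in replicate 2. A value above 0.6, a customary lower limit for a CpG island, was reached by 1823 regions (64.0%), against 26.7% of footprinted peaks. No p-value was computed, because regions of a library are not replicates of a condition.

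The size and sign of that difference depended on place and height. Within 1 kb of a TSS, median GC content was 65.3% in footprint-free regions and 64.5% in footprinted peaks, a difference of 0.72 percentage points. There the median CpG observed over expected was 0.767 in footprint-free regions and 0.780 in footprinted peaks, so that the difference turned to -0.0128. Those footprinted promoter peaks lay mostly at the TSS itself and were taller, with a median height of 5.34 against 1.34 in footprint-free regions. The 8467 footprinted promoter peaks no taller than the tallest footprint-free region had a median height of 2.26, a GC content of 61.0% and a CpG observed over expected of 0.608, so that the footprint-free regions were the higher in both against these. Among peaks 250 to 1000 bp downstream of a TSS, the 1479 footprint-free regions had a median GC content of 66.0% and a CpG observed over expected of 0.785, and the 2884 footprinted peaks had 62.0% and 0.632. In that zone the share of tall peaks that were footprint-free in both libraries was counted among peaks no taller than the tallest region. This share was 3.64% at a CpG observed over expected under 0.2. It was 10.6% from 0.2 to 0.4, 25.5% from 0.4 to 0.6, 36.2% from 0.6 to 0.8 and 42.9% at 0.8 and above. In replicate 2 the lowest and highest of these classes had 3.12% and 34.1%. The share thus climbed with CpG content in both libraries.

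**Figure D4:**
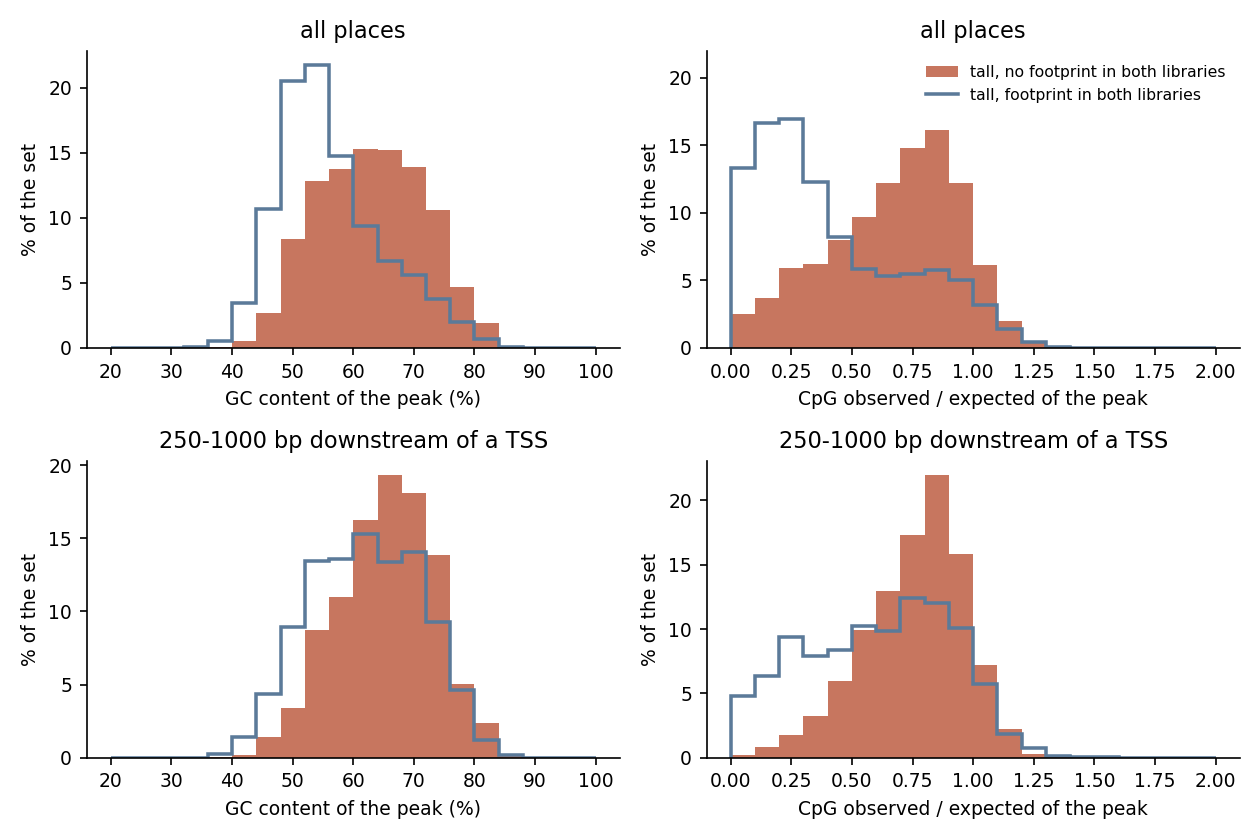
GC content (left) and CpG observed over expected (right) of footprint-free regions (filled) and of tall peaks with a footprint in both libraries (line) in replicate 1, as a percentage of each set, at all places (top) and 250 to 1000 bp downstream of a TSS (bottom). At all places the medians of CpG observed over expected are 0.711 and 0.321, and in the downstream zone they are 0.785 and 0.632.

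Regions away from promoters were a smaller and CpG-poorer group. The 623 distal regions had a median GC content of 55.6% and a CpG observed over expected of 0.353, against 52.5% and 0.242 in distal footprinted peaks. Their median distance to a TSS was 6.47 kb, against 12.3 kb, and 23.6% of them had a CpG observed over expected above 0.6, against 7.72%. The 85 exonic ones had a median CpG observed over expected of 0.630, the 351 intronic ones 0.327 and the 187 between genes 0.334. By mean height over both libraries, the tallest exonic region was the one in Jun, a subunit of the AP-1 factor, with a height of 2.93 in replicate 1 and 4.70 in replicate 2. The next was in Star, whose product carries cholesterol into mitochondria for steroid synthesis. It lay wholly in annotated untranslated sequence at chr8:25814961-25815220, 6.62 kb downstream of the TSS, with heights of 1.96 in replicate 1 and 5.17 in replicate 2. Its GC content of 47.7% was under the median of footprinted peaks, its tallest neighbour had a height of 2.98, and its mean height was 3.57 ± 2.27 (SD, n = 2). The third, in coding sequence 15.7 kb from the Nrde2 TSS, had 3.14 and 3.64, so that among these Nrde2 was the highest in replicate 1 and Star in replicate 2.

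Among the tallest intronic regions were one near the pseudogene Gm13039, with heights of 2.93 in replicate 1 and 4.40 in replicate 2 and a CpG observed over expected of 1.19, and one near Impact, a regulator of translation, at 2.83 and 4.45. The Impact region was intronic in the basic annotation, but 218 of its 220 bp were untranslated sequence of other transcripts in the full annotation. Between genes the tallest lay near Mos, an oocyte kinase gene, at 2.44 and 3.76. The next 2 lay near the noncoding genes Gm45805, at 2.97 and 2.99, and 2210008F06Rik, at 2.48 and 3.17, and were 420 bp and 400 bp wide.

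Most of the 13 elements were rarer in the central 150 bp of the footprint-free regions than of footprinted peaks. At all places together 11 were lower and 2, the GC box and the E-box, were higher. The E-box was in 4.63% against 4.45% in replicate 1 and in 4.66% against 4.55% in replicate 2. Over the whole called peak, wider in the footprint-free regions, the TEAD element was higher too, at 11.1% against 10.6% in replicate 1. The ETS element was then near equal, at 5.30% against 5.26% in replicate 1 and 5.01% against 5.13% in replicate 2. In the central 150 bp, the CTCF consensus, the site of the insulator protein CTCF, was present in 0.246% of the regions of replicate 1 and in 7.08% of footprinted peaks, with 3.98% of all autosomal peaks. It was in 0.321% of distal footprint-free regions against 9.22% of distal footprinted peaks, and in 0.209% against 7.05% over all places in replicate 2. The AP-1 element TGACTCA was present in 5.12% of footprint-free regions, 13.2% of footprinted peaks and 13.6% of all peaks. The CCAAT box (CCAAT), bound by the factor NF-Y, was in 10.3%, 19.4% and 18.5% of these sets. The cyclic AMP response element TGACGTCA, bound by CREB, was in 0.175%, 1.09% and 0.632%, and the NRF1 element in 0.0702%, 0.493% and 0.219%. The SF-1 element CAAGGTCA, which the adrenal regulator SF-1 binds, was in 1.72% of footprint-free regions, 3.61% of footprinted peaks and 4.13% of all peaks, and contains the half-site AGGTCA, which was in 9.23%, 15.1% and 17.1%. Within 1 kb of a TSS that gap was not seen: the SF-1 element was in 1.08% of footprint-free regions and 1.09% of footprinted peaks in replicate 1 and in 1.46% and 1.04% in replicate 2. The half-site was higher there, at 7.81% and 6.84% in replicate 1 and 8.03% and 6.67% in replicate 2. Against footprinted promoter peaks no taller than the tallest region, in 1.94% and 9.21% of which they were present in replicate 1, both were lower. Over the whole peak the half-site was the higher in that comparison, at 13.2% against 12.4% in replicate 1. The GC box GGGCGG, bound by SP factors, ran the other way, in 30.7%, 21.4% and 13.0%. A match describes letters only and is not a bound site.

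With place matched and heights held to the same upper limit, 9 elements were lower in the footprint-free regions of both libraries and 4 were higher (the GC box, the E-box, the ETS element and the cyclic AMP response element). Among peaks 250 to 1000 bp downstream of a TSS and no taller than the tallest footprint-free region, where median heights were still 1.31 and 2.06, the GC box was in 36.0% of the footprint-free and 28.8% of the 2148 footprinted peaks. AP-1 was in 2.77% and 7.22%, the CCAAT box in 7.91% and 13.2%, and the CTCF consensus in 0.203% and 3.26%. In replicate 2 the footprint-free regions of that zone had 36.5% with a GC box, 2.62% with AP-1 and 7.05% with a CCAAT box, against 29.2%, 7.08% and 13.6% of footprinted peaks. In replicate 1 the ETS element CCGGAAG was in 2.97% and 2.70%, and the E-box CACGTG of clock and MYC factors in 4.33% and 4.05%. The cyclic AMP response element rested on few peaks, 5 of 1479 footprint-free and 6 of 2148 footprinted ones. The GATA element AGATAA was in 1.62% and 3.26%, the TEAD element GGAATG in 5.48% and 7.22%, and the TATA box TATAAA in 0.609% and 1.77%. Within 1 kb of a TSS as a whole, where footprinted peaks of every height sit mostly at the TSS, the GC box was in 35.2% of footprint-free regions against 51.4%. Its direction thus depended on which promoter peaks were compared. Among all 6-base words in the downstream zone, the one most over-represented in the footprint-free regions was CCCGGC, in 36.2% against 21.6%, and the one most under-represented was CTGCCA, in 13.2% against 19.97%. These words were picked from all for their size and are a description.

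**Figure D5:**
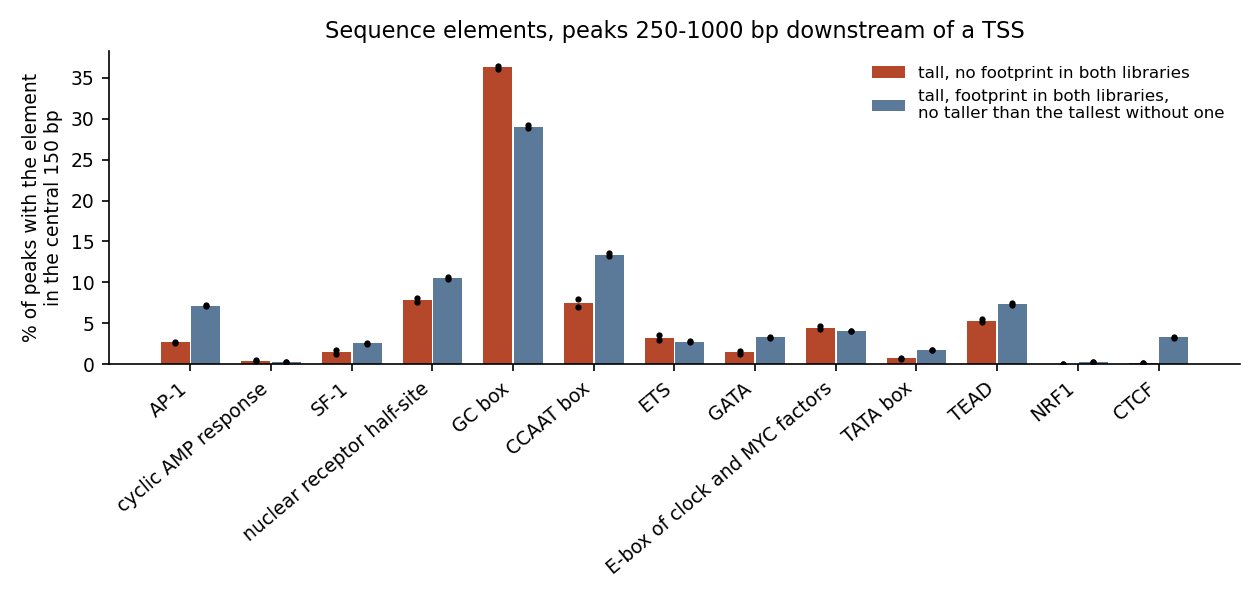
Percentage of peaks with each of 13 sequence elements on either strand in the central 150 bp, among peaks 250 to 1000 bp downstream of a TSS, for footprint-free regions (left bar of each pair) and for footprinted peaks no taller than the tallest of them (right bar). Bars are means over the 2 replicates and points are the replicates. The GC box is the tallest pair, at 36.0% and 28.8% in replicate 1, and AP-1, CCAAT box and CTCF are lower in the footprint-free regions.

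The genes beside the regions were described with 12 lists of adrenal and general genes. Of 13 autosomal genes of steroid synthesis, 10 had a tall peak within 1 kb of a TSS in each library. All 14 of cholesterol synthesis and uptake and all 8 housekeeping genes had one too. So did 5 of 8 genes in capsule and stroma and 5 of 8 in endothelium. Of 14 genes of medullary chromaffin cells, 7 had one in replicate 1 and 9 in replicate 2, and of 7 macrophage genes 1 and 2 did. No share over all genes is given beside these counts, so they do not identify the tissue. Over all 20780 autosomal protein-coding genes, 9.99% were called with a footprint-free region within 1 kb of a TSS and 23.8% with one within 50 kb. Of the 13 steroidogenesis genes, 2 (Fdx1, an electron carrier, and Scarb1, the receptor for high-density lipoprotein) had such a region within 1 kb and 6 within 50 kb. Of the 14 cholesterol genes 1 (Srebf2, the regulator of sterol synthesis) had one within 1 kb and 4 within 50 kb, and of the 14 chromaffin genes none had one at either distance. The clock list had 5 of 13 genes within 1 kb (Arntl, Per3, Cry1, Nr1d1 and Nfil3), or 38.5%, and 8 of 13 within 50 kb, or 61.5%. The immediate early list had 3 of 8 (Jun, Junb and Ier2), or 37.5%, and 5 of 8, or 62.5%. All 13 clock and all 8 immediate early genes had a tall promoter peak, with median heights of 15.4 and 14.6 in replicate 1. The other lists had 0 of 8 and 1 of 8 in the zona glomerulosa, 0 of 4 and 1 of 4 in the X-zone, 2 of 8 and 3 of 8 in capsule and stroma, 1 of 8 and 3 of 8 in endothelium. They had 0 of 7 and 2 of 7 in macrophages, 0 of 5 at both distances in Schwann cells, and 2 of 8 and 3 of 8 among housekeeping genes. The lists are small and these counts are descriptions, with nothing read from them as particular to a list.

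At single genes of the lists, the tallest regions within 50 kb stood in part at promoters of the gene or of a neighbour and in part in introns or between genes. Scarb1 had a region 430 bp downstream of its TSS with heights of 2.13 in replicate 1 and 3.42 in replicate 2. Srebf2 had one 707 bp downstream with 1.46 and 2.60, beside a peak of 18.6. Near Soat1, which esterifies cholesterol, the tallest lay in an intron 16.1 kb from its TSS with 1.98 and 1.77, higher in replicate 1 and without another peak within 1 kb. Wnt4, a signal of the zona glomerulosa, had one in an intron 15.1 kb downstream of its TSS with 1.06 and 1.37. Thrb, a thyroid hormone receptor gene of the X-zone list, had one between genes 1.08 kb upstream with 1.196 and 1.5005. Ptch1, the Hedgehog receptor, had 3 regions within 1 kb, the tallest with 1.42 and 2.39, and near Gli1, its downstream factor, the tallest was the promoter region of R3hdm2 with 2.90 and 4.25. Flt1, a receptor for vascular endothelial growth factor, had one 410 bp upstream with 1.11 and 1.67, and near Plvap the tallest was at Mrpl34 with 2.06 and 3.65. The regions nearest to the macrophage genes Cd74 and Cd68 were at Tcof1 with 1.06 and 1.24, and between genes near Tnfsfm13 with 0.906 and 1.05. Near the clock gene Per3 the tallest was at Vamp3 with 3.28 and 4.13, near Nr1d1 it was at Gm12359 with 2.63 and 4.10, and near Fosb it was at Vasp with 1.21 and 2.12. Rplp0, a ribosomal protein gene, had one 434 bp downstream with 2.16 and 2.99, where 65.1% of 32-mers occur once in the genome. These are signals of a whole gland, in which more cells with an open site and a more open site per cell cannot be told apart.

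Most genes had a single region. Of the genes nearest to a region, 2116 had 1, 281 had 2, 40 had 3, 11 had 4 and 1 had 8. The gene with 8 was Tnrc18, where the regions spanned 8.82 kb on both sides of a TSS, with heights of 0.906 to 2.28 in replicate 1 and 1.16 to 2.79 in replicate 2. Another 4 genes named here, with 4 regions each, were 8430419K02Rik, Adcy9, Atrnl1 and Cebpd, the first in alphabetical order of the 11 genes with 4. Those of Adcy9, an adenylyl cyclase gene, spanned 6.71 kb with heights of 1.07 to 1.81 in replicate 1 and 1.12 to 1.86 in replicate 2. Those of Cebpd, a C/EBP transcription factor gene, spanned 62.2 kb, with 3 at the promoter, and had a CpG observed over expected of 0.263 to 1.04. Those of 8430419K02Rik, a noncoding gene, lay within 1.34 kb between genes, and those of Atrnl1 within 2.10 kb.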

How the data were processed

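DNase-seq was analysed in 2 libraries of 1 group, described and not tested, so that no p-value was computed. Per the labels, the files are on mm10, and the text deposited beside them describes each library by itself. Aligner, callers and settings were not given in the sources used here. Deposited peak heights are a signal scaled by the authors. In both libraries 100% of heights were whole multiples of a step of 0.00934 (replicate 1) or 0.00883 (replicate 2), with a tolerance of 0.01 steps, so that the regions of replicate 1 ran from 96 to 502 steps. Read depth itself was not analysed here, so heights carry no counting interval. Among the deposited tables, the false discovery rates are q-values (adjusted p-values), and only positions under 0.05 are listed. The deposited footprint lists hold the constant 0.01 in their score column, so footprints could not be ranked.

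Overlap meant at least 1 bp. TSSs and gene parts came from the GENCODE M21 basic annotation, untranslated and coding stretches of named peaks from the full one, sequence from GRCm38.p6, and no autosomal peak reached past the end of its chromosome. A peak was placed by its centre, first as promoter (within 1 kb of any TSS), then exon, intron or between genes, and composition was taken over the called peak. Ambiguous mapping was measured by 32-mers that occur once in the genome. Tables and intervals were handled in Python 3.11.15 with pandas 2.3.3 and numpy 2.4.6, words were counted with numba 0.67.0, figures used matplotlib 3.10.9, and the functions were tested on simulated data. The regions, gene lists and elements were chosen with earlier results of these data known. Named genes are the nearest to the 12 tallest regions by mean height, the 3 tallest of each place, the tallest within 50 kb of up to 2 genes of each list, the 3 regions on each side of the threshold and the 5 genes with most regions, ties by alphabet. For the steroidogenesis, cholesterol, clock and immediate early lists, the genes counted within 1 kb are named in addition. Of the items that this rule names, 2 are not reported here.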

Additional observations from a re-analysis of the deposited data

Results flagged for a closer look

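The X chromosome lies outside the autosomes described above, and footprint-free tall peaks were found there too. Of 4014 X-chromosome peaks of replicate 1, 1330 were tall, and 96 of those had no footprint in replicate 1. In both libraries 47 were without one, which is 3.53% of the tall X peaks. Of these 47, 34 (72.3%) lay within 1 kb of a TSS, with a median GC content of 62.6% and a median CpG observed over expected of 0.673. This was flagged only because the data stand outside the comparisons of the report, and it was not tested against the autosomes.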

How the results depend on the processing

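A value counted as moved here when it changed by more than the SD between the 2 replicates' peak positions, which is small because both lists hold the same regions, and a count when it changed by over 1.5 times. The 5 summary values were the number of regions, their share within 1 kb of a TSS, their median GC content, their median CpG observed over expected and the share of promoter regions downstream of the TSS. A height threshold at the 75th percentile gave 360 regions, 88.9%, 66.8%, 0.791 and 74.4%. The shorter peak lists gave 1084, 85.1%, 65.7%, 0.773 and 77.8%. Leaving out 1 library gave 6087 to 7825 regions, 56.5% to 58.8%, 58.4% to 59.5%, 0.545 to 0.566 and 74.5% to 76.2%. Peaks of replicate 2 gave 78.4%, 63.8%, 0.720 and 78.7%. The TSS share was also 78.4% with a median over autosomal peaks, 78.5% with no footprint within 50 bp and 77.5% with reciprocal overlap of 50% of each peak, where 78.0% lay downstream. It was 48.0% (77.0% downstream) with a 500 bp window around the TSS and 75.4% (81.6% downstream) with protein-coding genes only. A footprint counted only with at least 50% of it in the peak moved none of the 5.

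The excess of the footprint-free regions over footprinted peaks was 9.78, 10.7, 12.6 and 11.7 GC percentage points in the 4 upper of 5 classes of height. In CpG observed over expected it was 0.406, 0.427, 0.465, 0.493 and 0.481 from the lowest to the highest of the 5. Splits by width and place were chosen after seeing the data. Within 5 classes of width, narrow to wide, the excess was 5.22, 3.59, 5.00, 4.95 and 5.37 points of GC and 0.249, 0.279, 0.224, 0.195 and 0.137 in CpG observed over expected. Within 1 kb of a TSS it was 0.72 points and -0.0128, a reversal of the CpG difference that did not hold against promoter peaks no taller than the tallest region. It was 3.06 points and 0.111 farther away, and 4 points and 0.153 from 250 to 1000 bp downstream. The alternatives of the downstream share were also chosen after seeing the data. Searching the whole peak in place of its central 150 bp moved 11 of the 13 element shares. All moved upward, which follows from the longer stretch searched, since the lower quartile of width was 200 bp. Some contrasts with footprinted peaks changed direction, as for the TEAD element at all places. Another was the half-site against promoter peaks no taller than the tallest region, at 13.2% and 12.4% in replicate 1 and 12.7% and 11.5% in replicate 2. No paired analysis was possible because there is 1 group and no test. Causes of these shifts were not tested.

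With 2 libraries of whole glands and no read counts, a footprint that was missed cannot be told apart from one that was not there. With the call made in each library alone, the footprint-free share was highest among the lowest tall peaks. The share free in both libraries was highest in classes of height above the lowest. The part of height in the calls was not tested. The replicates shared 46.8% of the footprint-free calls of replicate 1 and 36.8% of those of replicate 2. All regions come from 1 tissue, sex and age of an F1 hybrid measured against a C57BL/6J reference. Shares of regions and of words describe these libraries, and neighbouring regions at a promoter are not independent.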
